A study of Mus musculus with 32 samples.

Results

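Tendon core explants that had been cultured beside fibroblasts were compared between cores labelled KO and wildtype (WT) cores, as one contrast of an RNA sequencing series on assembloids. A core is a bundle of tail tendon fascicles, the collagen-rich load-bearing units of tendon with their resident tenocytes. The members were chosen by sample label: 4 core libraries labelled KO and 4 WT core libraries from assembloids with fibroblasts, 8 of the 32 libraries of the series. The contrast was then described across the 16088 of 25700 genes that passed edgeR's filter on low counts.

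The cores came from adult male and female mice, 12 to 15 weeks old, of the strain B6.129S2-Il6tm1Kopf/J, with the genotype Il-6+/+ for WT and Il-6-/- for KO. Each core sample pooled explants of a single mouse. All 8 cores were embedded in a collagen-1 hydrogel seeded with fibroblasts from wildtype Achilles tendons (called progenitors in the labels). The assembloids were clamped, and the tension was released once the hydrogel had set. They were held for 7 days in medium with serum, ascorbic acid and macrophage-colony stimulating factor, which the study calls tendinopathic niche conditions. Core and hydrogel were then separated. Replicate and title numbers recur in both genotypes, but the labels do not say what they mark, and a p-value below measures the spread between these pooled samples.

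IL-6 is a secreted cytokine of wounded tissue. It binds the receptor chain Il6ra and the shared signal transducer Il6st, which activates JAK kinases, the transcription factor STAT3 and the ERK1/2 cascade. Target genes of these routes include feedback inhibitors, acute phase proteins and immediate early genes, whose transcripts rise within minutes of a stimulus and are short-lived. Tenocytes and the fibroblasts around them also make the collagens, proteoglycans and glycoproteins that form the tendon matrix.

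Library totals were 30121114 to 37594625 counts in the WT group and 21980256 to 34800235 in the group labelled KO (two-sided exact permutation p = 0.200, where 4 libraries against 4 cannot go below 0.0286). Mitochondrially encoded transcripts took 0.748% to 0.944% and 0.765% to 1.12% of the counts (exact permutation p = 0.600). The Y-linked transcript Ddx3y was above 90 CPM in 2 libraries of each group and below 2 CPM in the others, so both groups held both sexes. Levels are TMM-scaled CPM, and fold changes are labelled KO over WT on the log2 scale with their SE from edgeR's quasi-likelihood test. The tendon markers Tnmd, Scx, Mkx and Thbs4 were detected in every library, at 104 to 429, 14 to 29.5, 172 to 235 and 7334 to 18039 CPM.

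Il6 (ENSMUSG00000025746), the targeted gene, went against the label. Its level was 6.14, 11.8, 4.95 and 9.36 CPM in the WT libraries and 10.4, 15.4, 17 and 37.4 CPM in those labelled KO. The highest WT level lay above the lowest level of the other group, and the 3 highest libraries were all labelled KO. Il6 passed as higher in the libraries labelled KO (log2 fold change 1.30 ± 0.39 (SE), edgeR adjusted p = 0.480), and an exact permutation test of the 8 log2 values gave p = 0.0571. Gene-level counts do not show which part of the transcript was read, so reads from a disrupted allele and reads from an intact one cannot be told apart. For this reason the group is called labelled KO throughout. The study also compared IL-6 protein in the supernatants of cell-free assembloids with either core, which these counts do not cover. In the cores beside cell-free hydrogel, where no fibroblasts were added, Il6 was at 7.48, 1.98, 12.2 and 3.98 CPM in the WT libraries and 7.37, 9.17, 6.77 and 21.3 CPM in those labelled KO. That difference had the same direction and did not pass (0.79 ± 0.53). In the hydrogels around the cores, where the seeded fibroblasts were wildtype in both groups, Il6 passed as higher beside cores labelled KO (1.03 ± 0.44).

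By the thresholds the study set for this contrast (unadjusted p under 0.05 and a log2 fold change beyond 0.5), 250 genes were higher in the cores labelled KO (1.55% of those tested), 142 were lower (0.883%) and 15696 did not pass. Among the 250 were regulators of early transcription and inflammation (Fos, Ier2, Nr4a1, Nos2, Cxcl2), and among the 142 were the chemokine Ccl8 and the matrix genes Cthrc1, Acan and Col11a2. After Benjamini-Hochberg adjustment 0 genes were under 0.05 in edgeR (0% of those tested), with 0.0723 for Fos and 0.196 for Ccl8 as the lowest values. Fos and Ccl8 were under 0.05 when the replicate number or the title number was fitted as a block, and Fos when the Y-linked transcript was. For Nos2 and every other gene named below the adjusted p was 0.457 or more, so that a gene said to be higher or lower has an unadjusted p under 0.05 and no more. At an unadjusted p under 0.05 there were 1428 genes, 747 higher (4.64%) and 681 lower (4.23%). Counts of list members at that p stand beside these shares. DESeq2 on the same counts placed 45 genes under an adjusted p of 0.05, with Fos, Ccl8, Nos2, Ier2 and Cxcl2 at the top. Of the 392 genes that passed the study's thresholds, 131 had groups that did not overlap, and 723 genes of all those tested (4.49%) did so. Without WT replicate 3 the number at an unadjusted p under 0.05 was 751, and it was 661 when all 5 core groups of the series shared 1 fit. In that fit the genes Vegfa, Sfrp2, Lrrc15, Fabp5, Dpp6, Garem2, Kcnh2, Efemp1, Hist1h1d and Myh2, described below, did not pass.

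**Figure D1:**
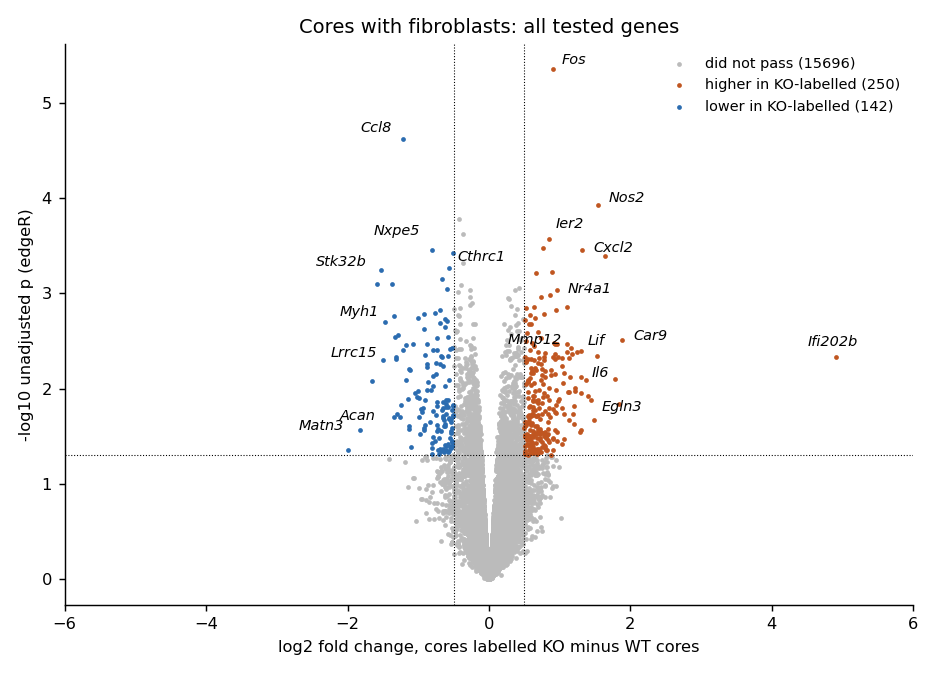
Each point is 1 of the 16088 tested genes, with its log2 fold change (cores labelled KO minus WT cores) on the x axis and the -log10 of the unadjusted edgeR p on the y axis. Dotted lines mark p of 0.05 and log2 fold changes of -0.5 and 0.5, with 250 genes to the upper right, 142 to the upper left and Fos highest.

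Immediate early genes included the gene with the lowest p of all, Fos, which was higher in the cores labelled KO. Of 26 tested, 25 had a fold change above 0, 11 were higher at an unadjusted p under 0.05 and 1 was lower, with a median log2 fold change of 0.42 against 0.00 over all tested genes, of which 50.1% were above 0. The 11 became 7 in the fit of all 5 core groups. Fos (ENSMUSG00000021250), a subunit of the AP-1 transcription factor, was at 25, 24.4, 20.5 and 18.1 CPM in the WT libraries and 42, 40.5, 43.2 and 38.7 CPM in those labelled KO. All 4 libraries labelled KO lay above every WT library, and the levels within a group were close together (log2 fold change 0.90 ± 0.10 (SE), edgeR adjusted p = 0.0723). Ier2, a nuclear immediate early protein, was at 10.8, 12.8, 11.4 and 7.97 CPM in the WT libraries and 17.2, 17.7, 18.2 and 24.3 CPM in those labelled KO. Its groups were also apart (log2 fold change 0.84 ± 0.15 (SE)), with replicate 4 labelled KO above its 3 group members. Nr4a1, an orphan nuclear receptor, was at 2.26, 2.63, 3.07 and 1.99 CPM in the WT libraries and 3.74, 4.06, 4.99 and 6.67 CPM in those labelled KO, with groups that did not overlap (log2 fold change 0.96 ± 0.21 (SE)). Junb, another AP-1 subunit, and Zfp36, which destabilises the mRNA of cytokines, were higher in every library labelled KO than in any WT library, although both stayed under the fold threshold (log2 fold changes 0.45 and 0.43). Egr1, a zinc finger factor that also takes part in tendon differentiation, was at 12.8, 30.3, 24.8 and 16.2 CPM in the WT libraries and 26.8, 33.8, 62.2 and 40.1 CPM in those labelled KO. These groups overlapped, and the highest level was in replicate 3 labelled KO (log2 fold change 0.95 ± 0.30 (SE)). Nr4a3, a relative of Nr4a1, was the member that was lower (-0.46 ± 0.19, named after its value was seen), though not in the fit of all 5 core groups nor without WT replicate 3, WT replicate 4, replicate 1 labelled KO or replicate 4 labelled KO.

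ERK1/2 feedback genes restrain the kinase cascade that induces them. Of 18 tested, 14 had a fold change above 0 and 7 were higher at an unadjusted p under 0.05, with 0 lower and a median of 0.25. Without WT replicate 4 it was 4 that were higher, and 3 in the fit of all 5 core groups. Dusp1, a phosphatase that inactivates MAP kinases, was at 45.2, 45.1, 40.4 and 45.8 CPM in the WT libraries and 53.8, 57.7, 64.2 and 99.3 CPM in those labelled KO. Every library labelled KO was above the WT range (log2 fold change 0.64 ± 0.17 (SE)), and without replicate 4 of that group the fold change no longer passed the study's thresholds. Dusp6, which acts on ERK1/2, and Spry2, an inhibitor of receptor tyrosine kinase signalling, showed smaller differences without overlap (log2 fold changes 0.23 and 0.29). Ier3, a regulator of ERK signalling and cell survival that stands in both lists, was at 33.7, 47.1, 31.4 and 31.6 CPM in the WT libraries and 44.6, 67.5, 47.1 and 87.7 CPM in those labelled KO (log2 fold change 0.77 ± 0.22 (SE)). WT replicate 2 had the highest WT level of Ier3 and lay inside the range of the other group.

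The 250 bases upstream of the start of 3 of these genes are shown because the genes moved together and share the letters TGACG, the core of the cyclic AMP response element, which CREB-family factors bind. The sequences are from RefSeq on GRCm38.p6, at chr12:85473640-85473889 (plus strand) for Fos, chr15:101266596-101266845 (plus strand) for Nr4a1 and chr17:26508473-26508722 (minus strand) for Dusp1, written 5′ to 3′ in the direction of the gene. Capitals mark TGACG on either strand, and in Dusp1 a pair of matches on opposite strands overlaps.
Fos: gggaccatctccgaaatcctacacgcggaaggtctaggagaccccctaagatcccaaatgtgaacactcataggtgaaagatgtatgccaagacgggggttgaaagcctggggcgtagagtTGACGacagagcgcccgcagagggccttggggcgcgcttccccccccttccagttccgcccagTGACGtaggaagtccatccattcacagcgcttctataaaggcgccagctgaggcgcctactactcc
Nr4a1: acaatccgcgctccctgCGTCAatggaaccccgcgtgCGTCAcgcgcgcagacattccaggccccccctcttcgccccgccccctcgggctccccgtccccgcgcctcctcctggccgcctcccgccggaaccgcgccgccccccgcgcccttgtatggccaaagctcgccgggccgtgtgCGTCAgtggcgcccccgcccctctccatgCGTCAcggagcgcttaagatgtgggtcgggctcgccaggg
Dusp1: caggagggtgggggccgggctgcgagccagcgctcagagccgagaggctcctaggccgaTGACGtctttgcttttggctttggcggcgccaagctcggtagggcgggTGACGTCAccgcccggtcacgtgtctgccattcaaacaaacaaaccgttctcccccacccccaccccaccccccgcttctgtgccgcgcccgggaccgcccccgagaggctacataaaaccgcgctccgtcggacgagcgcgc
The letters occurred in 2 places in the Fos window, 4 in that of Nr4a1 and 3 in that of Dusp1. Among the immediate early genes, 22 of 28 had a promoter entry and 13 of these (59.1%) held TGACG, compared to 2886 of 11245 tested genes with an entry (25.7%) and 17.9% of all 27025 promoters. A match describes the letters and not a bound site.

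Among NF-kB and inflammatory genes, of 28 tested, 22 had a fold change above 0, 9 were higher and 1 lower at an unadjusted p under 0.05, with a median of 0.18. The 9 became 3 in the fit of all 5 core groups and lay between 6 and 12 with 1 library left out. The lower one, the cytokine Il18 (-0.32 ± 0.13), was named after its value was seen and was not lower in that fit, nor without WT replicate 1, 2 or 3, replicate 2 labelled KO or replicate 4 labelled KO. Nos2 (ENSMUSG00000020826), the inducible nitric oxide synthase, was at 3.19, 3.52, 2.16 and 2.13 CPM in the WT libraries and 7.19, 8.85, 5.12 and 11.2 CPM in those labelled KO. The groups were fully apart (log2 fold change 1.54 ± 0.25 (SE), edgeR adjusted p = 0.457), and replicate 4 labelled KO had the highest level. Nfkbiz, an atypical nuclear IkB protein that is needed for a subset of secondary inflammatory genes, was at 65.9, 74.8, 55.8 and 58.8 CPM in the WT libraries and 84.2, 89.4, 80.8 and 113 CPM in those labelled KO, again without overlap (log2 fold change 0.52 ± 0.12 (SE)), and it no longer passed without WT replicate 3, WT replicate 4 or replicate 4 labelled KO. Tnfaip3 and Nfkbia, inhibitors that NF-kB itself induces, were higher in all 4 libraries labelled KO (log2 fold changes 0.50 and 0.40). Nod2, a sensor of bacterial peptidoglycan, was at 3.75, 3.73, 2.8 and 2.9 CPM in the WT libraries and 6.35, 4.61, 4.67 and 5 CPM in those labelled KO (log2 fold change 0.65 ± 0.15 (SE)). Ptgs2, which encodes the enzyme that makes the precursor of prostaglandins, was at 7.41, 13.5, 6.3 and 8.04 CPM in the WT libraries and 8.4, 22.4, 15.7 and 24 CPM in those labelled KO (log2 fold change 0.98 ± 0.33 (SE)). Replicate 1 labelled KO stayed within the WT range of Ptgs2.

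Chemokines went both ways. Of 30 chemokine and receptor genes tested, 5 passed the thresholds as higher and 1 as lower, and the median was 0.26 (0.147 without replicate 3 labelled KO and 0.171 without WT replicate 3). At an unadjusted p under 0.05, 6 were higher and 1 lower (3 lower without replicate 4 labelled KO, 2 without WT replicate 2 or replicate 1 labelled KO). Ccl8 (ENSMUSG00000009185), a monocyte attractant, was at 32.8, 47.8, 50.7 and 40.0 CPM in the WT libraries and 14.9, 23.8, 17.4 and 18 CPM in those labelled KO. All 4 libraries labelled KO were below every WT library (log2 fold change -1.21 ± 0.17 (SE), edgeR adjusted p = 0.196). Cxcl2, a neutrophil attractant, was at 2.29, 2.23, 1.48 and 2.47 CPM in the WT libraries and 4.47, 3.43, 5.68 and 7.67 CPM in those labelled KO, and here the libraries labelled KO were all above (log2 fold change 1.32 ± 0.25 (SE)). Its neighbour in the genome Cxcl1 was at 8.54, 17.3, 7.82 and 14.6 CPM in the WT libraries and 11.5, 29.2, 25.6 and 47.1 CPM in those labelled KO (log2 fold change 1.22 ± 0.39 (SE)), with replicate 1 labelled KO inside the WT range. Cx3cr1, the fractalkine receptor of monocytes and macrophages, was at 5.21, 3.21, 2.8 and 2.94 CPM in the WT libraries and 18.6, 7.9, 4.9 and 5.24 CPM in those labelled KO (log2 fold change 1.38 ± 0.42 (SE)). Replicate 1 labelled KO was the highest of the 8, and replicate 3 lay just below the highest WT library. Ackr3, a scavenging receptor for Cxcl12, passed as well (0.64 ± 0.20), but not without replicate 2 labelled KO.

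Upstream sequences of Cxcl1 and Cxcl2 are given because both genes were higher and their windows hold the same kappa B site, the element that NF-kB dimers bind, shown in capitals. The windows, from RefSeq on GRCm38.p6, are chr5:90890995-90891244 (plus strand) and chr5:90903649-90903898 (plus strand).
Cxcl1: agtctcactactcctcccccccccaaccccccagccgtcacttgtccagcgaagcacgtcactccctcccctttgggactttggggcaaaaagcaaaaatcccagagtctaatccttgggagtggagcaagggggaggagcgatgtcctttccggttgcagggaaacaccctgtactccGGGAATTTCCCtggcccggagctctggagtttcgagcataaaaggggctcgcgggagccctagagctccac
Cxcl2: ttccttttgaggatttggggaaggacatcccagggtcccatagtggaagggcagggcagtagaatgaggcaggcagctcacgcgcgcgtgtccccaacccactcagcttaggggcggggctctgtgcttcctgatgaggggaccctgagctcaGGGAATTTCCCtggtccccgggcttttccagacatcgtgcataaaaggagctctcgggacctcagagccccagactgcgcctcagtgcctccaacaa
The capitals are the same in both windows and match on both strands, so that each window counts 2 overlapping matches. A kappa B site was present in 7 of 29 chemokine and receptor genes with an entry (24.1%) and in 7 of 24 NF-kB and inflammatory genes (29.2%), compared to 4.43% of the tested genes and 3.75% of all promoters. The window of Il6 held 1 as well, and that of Ccl8 held 0.

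Of the IL-6 family, 2 of 17 ligands and receptors passed, Il6 itself and Lif, with a median of 0.02. Lif, a ligand that also signals through Il6st, was at 1.98, 4.13, 2.43 and 1.96 CPM in the WT libraries and 3.76, 9.53, 4.41 and 7.58 CPM in those labelled KO (log2 fold change 1.25 ± 0.34 (SE)). Replicates 2 and 4 labelled KO had the highest Lif levels, and WT replicate 2 lay above replicate 1 of the other group. The receptor chains did not pass: Il6ra was at 13.4 to 25 CPM and Il6st at 1129 to 1297 CPM over the 8 libraries. Among 30 genes of JAK-STAT3 signalling and the acute phase, 5 were higher at an unadjusted p under 0.05 and 0 lower, with a median of 0.09 (3 higher without WT replicate 3 or replicate 4 labelled KO, 2 in the fit of all 5 core groups and 11 without replicate 1 labelled KO, and a median of 0.0564 without replicate 2 labelled KO). These were Junb, the kinase Pim1, the IkB-like Bcl3 and the C/EBP factors Cebpd and Cebpb, with log2 fold changes of 0.27 for Bcl3 to 0.56 for Cebpd. Cebpd alone passed the fold threshold, and it was at 94.6, 100.5, 82.2 and 78.2 CPM in the WT libraries and 104, 138, 89.1 and 195 CPM in those labelled KO (log2 fold change 0.56 ± 0.21 (SE)). Replicate 3 labelled KO lay inside the WT range of Cebpd, which no longer passed without WT replicate 3, WT replicate 4 or replicate 4 labelled KO. The acute phase transcript Saa3, chosen after its values were seen, was at 5695, 5712, 6732 and 9667 CPM in the WT libraries and 7126, 8534, 9254 and 18091 CPM in those labelled KO, a difference that did not pass (log2 fold change 0.63 ± 0.32 (SE)).

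**Figure D2:**
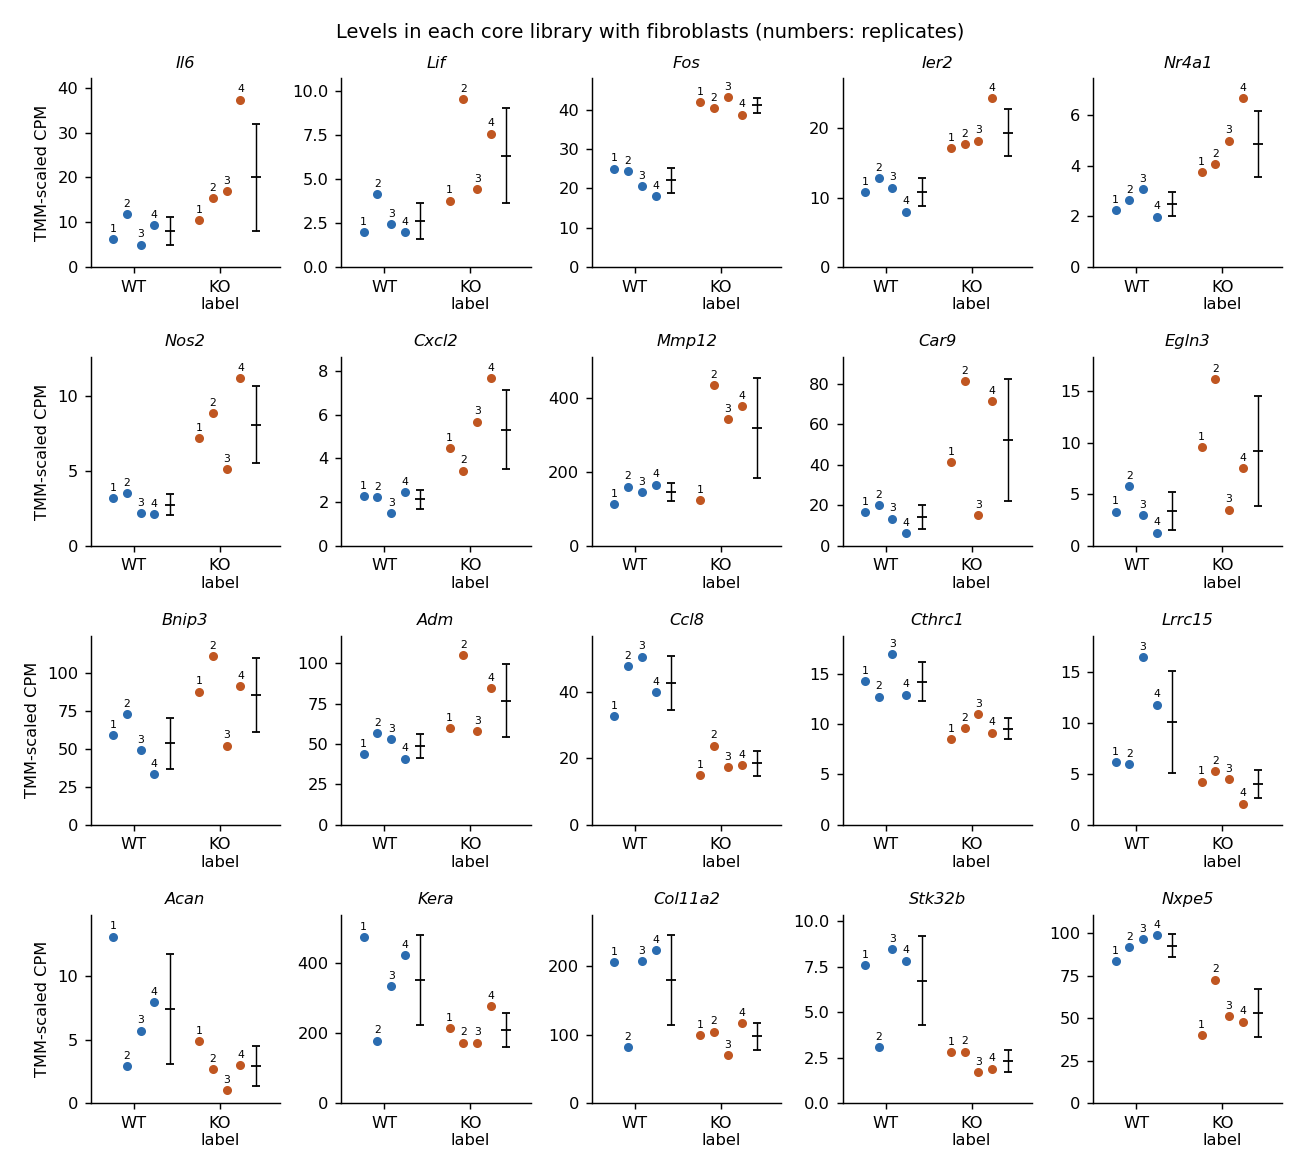
Levels of 20 genes in TMM-scaled CPM (y axis, starting at 0) in each library with fibroblasts, blue for WT and orange for labelled KO, with replicate numbers above the points and the mean ± SD (n = 4) as a bar at the right of each group. The groups of Fos, Ier2, Nr4a1, Nos2, Cxcl2, Ccl8, Cthrc1 and Nxpe5 do not overlap, while replicate 3 labelled KO lies near the WT levels of Car9, Egln3 and Bnip3.

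Of the lists counted in the fit of the 8 libraries without a block, hypoxia response genes had the most members past an unadjusted p of 0.05. These are targets of the HIF transcription factors, which accumulate when oxygen falls and the prolyl hydroxylases slow down. Of 28 tested, 27 had a fold change above 0, 16 were higher at an unadjusted p under 0.05 and 0 lower, with a median of 0.42, and 7 passed the fold threshold. Car9 (ENSMUSG00000028463), a carbonic anhydrase at the cell surface, was at 16.6, 20.2, 13.4 and 6.18 CPM in the WT libraries and 41.5, 81.5, 15.1 and 71.5 CPM in those labelled KO. Replicates 1, 2 and 4 labelled KO were above the WT range and replicate 3 was inside it (log2 fold change 1.89 ± 0.49 (SE)). Egln3, one of the prolyl hydroxylases and itself a HIF target, was at 3.3, 5.82, 3 and 1.28 CPM in the WT libraries and 9.58, 16.2, 3.5 and 7.53 CPM in those labelled KO, again with replicates 1, 2 and 4 labelled KO above the WT range and replicate 3 inside it (log2 fold change 1.44 ± 0.48 (SE)). The other members among the 5 of lowest p were Ero1l, an oxidase of disulfide formation (0.46 ± 0.14), and Mxi1, a Myc antagonist (0.25 ± 0.08), both under the fold threshold, and Adm. Bnip3 and Ddit4 stood outside these 5 and were chosen after their values were seen. Bnip3, a mitophagy receptor, was at 59.2, 73.1, 49.1 and 33.2 CPM in the WT libraries and 88, 111, 52.2 and 91.4 CPM in those labelled KO (log2 fold change 0.67 ± 0.26 (SE)). Ddit4, an inhibitor of mTORC1, was at 24.2, 27.2, 18.2 and 13.5 CPM in the WT libraries and 46.2, 45.4, 16.5 and 35.6 CPM in those labelled KO (log2 fold change 0.79 ± 0.31 (SE)). In both, replicate 3 labelled KO lay inside the WT range and WT replicate 4 was the lowest of the 8. The vasodilator peptide adrenomedullin, Adm, was at 43.5, 56.9, 53.1 and 40.9 CPM in the WT libraries and 59.8, 105, 57.8 and 84.7 CPM in those labelled KO, and its groups did not overlap (log2 fold change 0.66 ± 0.19 (SE)). P4ha2, a collagen prolyl hydroxylase subunit, and Vegfa, the angiogenic growth factor, also passed (log2 fold changes 0.75 and 0.67). Ndufa4l2, a HIF target that lies outside the fixed list and was chosen after its values were seen, was at 81.3, 70.8, 61.7 and 34.6 CPM in the WT libraries and 160.3, 208, 62.1 and 184 CPM in those labelled KO (log2 fold change 1.31 ± 0.35 (SE)).

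The hypoxia result depended on single libraries. The number of members higher at an unadjusted p under 0.05 was 21 without replicate 3 labelled KO and between 7 and 17 when any other library was left out. It was 7 without WT replicate 4, 7 without replicate 2 labelled KO, 8 without WT replicate 3 and 10 without replicate 1 labelled KO, and 0 members were lower in any of these fits. With the Y-linked transcript as a block it was 13. Bnip3 and Vegfa no longer passed without WT replicate 3, WT replicate 4 or replicate 2 labelled KO, Ddit4 without these or replicate 1 labelled KO, Vegfa also without WT replicate 1, and Adm without replicate 2 labelled KO. Car9, Egln3 and P4ha2 passed in every alternative. In the same libraries, glycolysis and pentose phosphate genes were 21 of 26 above 0, with 8 higher and 1 lower and a median of 0.26. The higher members of lowest p were the isomerase Gpi1 (0.37 ± 0.12), the aldolase Aldoc (0.43 ± 0.15), the phosphofructokinase Pfkp (0.35 ± 0.12) and the glucose transporter Slc2a1 (0.47 ± 0.19), all under the fold threshold. Chosen after their values were seen were the enolase Eno1 (0.46 ± 0.18) and the lactate exporter Slc16a3 (0.79 ± 0.34). The muscle-type enzyme Pgam2 was the 1 that was lower (-0.52 ± 0.20), except without WT replicate 3 or replicate 1, 2 or 4 labelled KO. Leaving out a single library moved the 8 to between 2 (without replicate 1 labelled KO) and 14 (without replicate 3 labelled KO). It was 3 without WT replicate 4 or replicate 2 labelled KO, 4 without WT replicate 3 and 5 without replicate 4 labelled KO, 5 in the fit of all 5 core groups and 13 in DESeq2. Slc16a3 did not pass in DESeq2 nor without WT replicate 3 or 4, replicate 1 labelled KO, replicate 2 labelled KO or replicate 4 labelled KO.

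The upstream windows of 4 of these genes are shown because they rank among the larger fold changes of the list and hold ACGTG, the core of the hypoxia response element. They are from RefSeq on GRCm38.p6, at chr4:43506776-43507025 (plus strand) for Car9, chr12:54203875-54204124 (minus strand) for Egln3, chr7:138909507-138909756 (minus strand) for Bnip3 and chr10:59951771-59952020 (minus strand) for Ddit4. Capitals mark ACGTG on either strand. In Bnip3 the 2 matches lie on opposite strands and overlap.
Car9: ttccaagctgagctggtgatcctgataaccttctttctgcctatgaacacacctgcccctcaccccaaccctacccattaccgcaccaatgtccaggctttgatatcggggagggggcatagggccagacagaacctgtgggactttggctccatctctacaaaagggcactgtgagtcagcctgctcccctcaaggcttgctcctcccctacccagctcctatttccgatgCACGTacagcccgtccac
Egln3: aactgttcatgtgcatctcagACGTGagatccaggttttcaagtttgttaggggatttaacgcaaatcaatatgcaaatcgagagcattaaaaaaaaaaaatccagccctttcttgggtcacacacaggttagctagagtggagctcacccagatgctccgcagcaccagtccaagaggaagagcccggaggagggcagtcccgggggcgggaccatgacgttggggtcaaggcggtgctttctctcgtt
Bnip3: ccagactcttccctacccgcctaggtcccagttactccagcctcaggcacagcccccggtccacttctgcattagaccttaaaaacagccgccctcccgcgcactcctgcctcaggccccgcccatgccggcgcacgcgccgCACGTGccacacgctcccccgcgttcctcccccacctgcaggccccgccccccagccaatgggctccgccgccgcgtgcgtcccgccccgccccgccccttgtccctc
Ddit4: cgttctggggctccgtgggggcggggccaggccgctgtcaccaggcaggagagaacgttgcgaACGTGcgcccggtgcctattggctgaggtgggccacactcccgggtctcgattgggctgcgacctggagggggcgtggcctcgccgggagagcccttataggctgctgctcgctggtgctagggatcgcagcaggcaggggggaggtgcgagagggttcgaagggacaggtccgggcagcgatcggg
Of the hypoxia genes with a promoter entry, 13 of 24 (54.2%) held the letters, against 21.0% of the tested genes and 16.6% of all promoters. The windows of Adm and Vegfa, which also passed, held 0 matches.

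Oxidative phosphorylation genes stood on the other side of 0. Of 64 nuclear-encoded members, 58 were below 0 and 5 were lower at an unadjusted p under 0.05, with 0 higher and a median of -0.10. The 5 became 2 without WT replicate 3 or replicate 3 labelled KO, 3 without WT replicate 1 and 11 without replicate 4 labelled KO, 0 in the fit of all 5 core groups and 11 with the Y-linked transcript as a block, and the median was -0.0657 without WT replicate 3 and -0.0672 without replicate 3 labelled KO. The lowest p was that of Ndufa4, a subunit of cytochrome c oxidase (-0.29 ± 0.09). A share of 5 in 64 compares to 4.23% of all genes on that side. Of 30 ATF4 and unfolded protein response genes, 28 were below 0 and 3 were lower, with a median of -0.11. Without WT replicate 3 the median was -0.0563 and 9 of the 30 were above 0. The 3 became 5 without WT replicate 2 or replicate 2 labelled KO and 6 with no filter on low counts, and 2 without any other library. Phgdh, which begins serine synthesis, and Chac1, which degrades glutathione, passed the thresholds (-0.57 and -0.52), while Asns, which makes asparagine, stayed under the fold threshold (-0.33). Chac1 lost its call in 10 alternatives, the fit of all 5 core groups and those without 6 of the 8 libraries among them, and Phgdh lost it without WT replicate 4. The metallothioneins Mt1 and Mt2, which bind zinc, were higher (0.84 and 0.72), but neither passed when WT replicate 1, WT replicate 3, replicate 2 labelled KO or replicate 4 labelled KO was left out, nor Mt2 without WT replicate 4 or with the Y-linked transcript as a block. Haem oxygenase Hmox1 and the secreted peroxidase Gpx3 were lower by less than the fold threshold (-0.44 and -0.43).

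**Figure D3:**
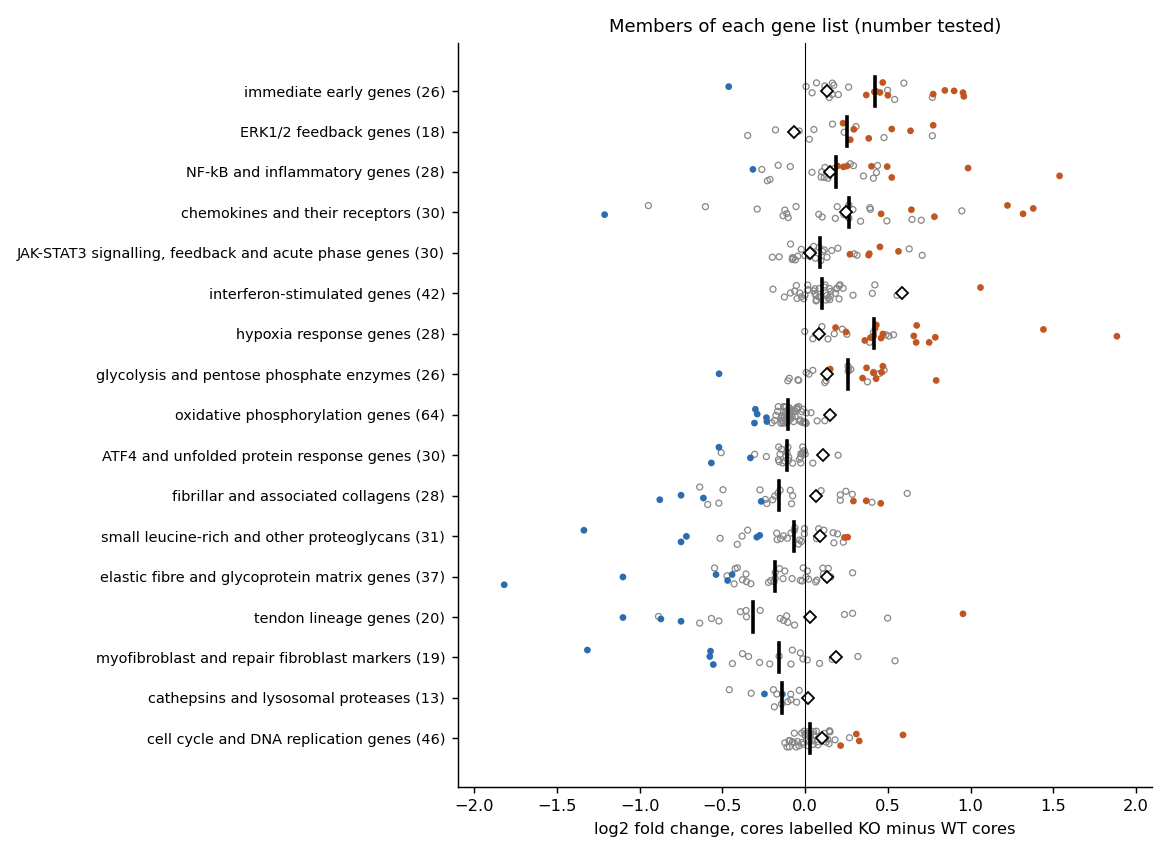
Log2 fold changes (x axis, cores labelled KO minus WT cores) of the members of 17 gene lists, with filled points at an unadjusted p under 0.05 (orange higher, blue lower), open grey points for the others and a black bar for the median with fibroblasts. White diamonds give the median of the same genes in cores beside cell-free hydrogel, which is 0.42 with fibroblasts and 0.09 cell-free for hypoxia genes, and 0.10 and 0.59 for interferon-stimulated genes.

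Matrix transcripts were counted by class. In bulk samples, fewer cells of a type and less RNA per cell cannot be told apart. Of 28 collagen genes, 18 were below 0, 4 were lower and 3 higher at an unadjusted p under 0.05, with a median of -0.16. Over all tested genes 4.23% were lower and 4.64% higher at that p. The 4 became 9 without WT replicate 2 and 7 with no filter, and the 3 became 0 without WT replicate 3 or in the fit of all 5 core groups and 1 without replicate 1 labelled KO. The median was -0.0497 without replicate 3 labelled KO, -0.095 without WT replicate 1, -0.257 without replicate 1 labelled KO and -0.267 without WT replicate 2. Col11a2, a chain of the fibril-nucleating collagen XI, was at 205, 81.4, 207 and 223 CPM in the WT libraries and 99.4, 104, 69.7 and 116 CPM in those labelled KO. WT replicate 2 lay inside the range of the group labelled KO and the other 3 WT libraries lay above it (log2 fold change -0.88 ± 0.28 (SE)). Col8a2, a network-forming collagen, was at 220.2, 129.9, 292 and 189 CPM in the WT libraries and 151, 135, 98.4 and 109 CPM in those labelled KO (log2 fold change -0.75 ± 0.22 (SE)). The main tendon collagen Col1a1 was at 15381, 6085, 12691 and 12740 CPM in the WT libraries and 11357, 7867, 4758 and 6155 CPM in those labelled KO, and this difference did not pass (log2 fold change -0.64 ± 0.34 (SE)). Col5a3, a minor fibrillar chain, was higher (0.46 ± 0.17).

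Among 31 proteoglycan genes, 5 were lower and 2 higher, with a median of -0.07 (3 lower without WT replicate 1, 3 or 4 or replicate 3 labelled KO, 2 lower and 0 higher in the fit of all 5 core groups, and medians from -0.012 without WT replicate 1 to -0.109 without replicate 4 labelled KO). The 2 became 4 without WT replicate 4 and 1 without WT replicate 3, replicate 1 labelled KO or replicate 2 labelled KO. The shares over all tested genes were 4.23% lower and 4.64% higher. Acan, the large aggregating proteoglycan of cartilage and tendon entheses, was at 13.1, 2.94, 5.7 and 7.9 CPM in the WT libraries and 4.86, 2.71, 1.07 and 3 CPM in those labelled KO (log2 fold change -1.34 ± 0.48 (SE)). Kera, the corneal and tendon keratan sulfate proteoglycan keratocan, was at 473, 179, 335 and 422 CPM in the WT libraries and 213, 173, 173 and 277 CPM in those labelled KO (log2 fold change -0.75 ± 0.27 (SE)). Ogn, osteoglycin, chosen after its values were seen, was at 177, 134, 316 and 333 CPM in the WT libraries and 119.9, 188, 122 and 154 CPM in those labelled KO (log2 fold change -0.72 ± 0.28 (SE)). In each of the 3, WT replicate 2 was the lowest WT library and lay inside the range of the other group. Kera and Ogn passed in neither the fit of all 5 core groups nor those without WT replicate 4 or replicate 3 labelled KO, Kera also not without WT replicate 1 or replicate 2 labelled KO, and Ogn not without WT replicate 3 or replicate 1 labelled KO. Acan did not pass without WT replicate 1. The heparan sulfate proteoglycan Sdc2 showed a small difference without overlap (-0.27 ± 0.08), and Sdc3 of the same family (0.24 ± 0.09) and the hyaluronan synthase Has1 (0.26 ± 0.09) small ones in the other direction. Of 37 elastic fibre and glycoprotein genes, 26 were below 0 and 5 were lower, with 0 higher and a median of -0.18. The 5 became 9 without WT replicate 2, 2 without WT replicate 3 or 4, 3 without replicate 3 or 4 labelled KO, and 8 in DESeq2 or with no filter, and the median was -0.0651 without replicate 3 labelled KO. Matn3, a cartilage matrilin, and Mfap4, a microfibril protein, had the largest fold changes of those that passed (-1.82 ± 0.70 and -1.10 ± 0.47), but Matn3 stayed under 2 CPM in every library. Both lost the call when WT replicate 3 or 4 or replicate 1, 3 or 4 labelled KO was left out, and Mfap4 in DESeq2. Matn2 (-0.44 ± 0.10) and the fibulin Efemp1 (-0.54 ± 0.20) were lower too, Efemp1 not without WT replicate 4 or replicate 4 labelled KO.

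Of 20 tendon lineage genes, 16 were below 0, 3 were lower and 1 (Egr1) higher, and their median was -0.31. With 1 library left out the median was -0.145 (without replicate 3 labelled KO), -0.165 (without WT replicate 1) or between -0.221 (without WT replicate 3) and -0.45 (without replicate 4 labelled KO). The 3 were Kera, Mfap4 and Chodl, a lectin-like membrane protein (-0.87 ± 0.23). Tnmd, the tendon-restricted membrane protein tenomodulin, and Scx, the tendon transcription factor scleraxis, did not pass (-0.57 ± 0.38 and -0.36 ± 0.21). By library, the list stood highest in WT replicate 1 (median deviation 0.42) and lowest in replicate 3 labelled KO (-0.50), and WT replicate 2 (-0.32) was below 3 of the 4 libraries labelled KO. Leaving out WT replicate 2 raised the number of lower members to 7, leaving out replicate 4 labelled KO raised it to 5, and it was 5 with no filter or with the Y-linked transcript as a block. Myofibroblast and repair fibroblast markers were lower in 4 of 19 and higher in 0, with a median of -0.157 (-0.0853 without WT replicate 3 and -0.237 without replicate 3 labelled KO). Cthrc1, a secreted protein of activated fibroblasts, was at 14.3, 12.7, 17 and 12.9 CPM in the WT libraries and 8.51, 9.62, 11 and 9.15 CPM in those labelled KO, and its groups did not overlap (log2 fold change -0.57 ± 0.11 (SE)), although it did not pass without WT replicate 3. Lrrc15, a membrane protein of TGF-beta-activated fibroblasts, was at 6.17, 5.97, 16.4 and 11.8 CPM in the WT libraries and 4.21, 5.28, 4.48 and 2.05 CPM in those labelled KO, also without overlap (log2 fold change -1.32 ± 0.36 (SE)). Lrrc17 and smooth muscle actin Acta2 passed with smaller fold changes (-0.58 and -0.56) but not without WT replicate 3, and Acta2 also not without WT replicate 4, replicate 1 labelled KO or replicate 3 labelled KO. When all 5 core groups shared 1 fit, 0 of these 19 were lower at that p. Dpt, dermatopontin, a small matrix protein of fibroblasts in loose connective tissue, was at 418, 148, 331 and 286 CPM in the WT libraries and 189.7, 186, 75.7 and 131 CPM in those labelled KO (log2 fold change -1.02 ± 0.34 (SE)).

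Of 17 matrix metalloproteinases, 7 were above 0, 1 was higher and 3 were lower at an unadjusted p under 0.05, with a median of -0.07. The 3 became 1 in the fit of all 5 core groups or without WT replicate 3 or 4, and the 1 became 2 without WT replicate 3, replicate 1 labelled KO or replicate 3 labelled KO. For these and the other proteases below, the shares over all tested genes were 4.64% higher and 4.23% lower. Mmp12, macrophage metalloelastase, was at 112, 159.7, 145 and 165 CPM in the WT libraries and 124, 433, 342 and 376 CPM in those labelled KO. Replicates 2, 3 and 4 labelled KO were above every WT library, and replicate 1 lay in the WT range (log2 fold change 1.13 ± 0.31 (SE)). Mmp13, the main rodent collagenase, and Mmp14, which activates other metalloproteinases at the membrane, were lower by less than the fold threshold (-0.48 ± 0.17 and -0.28 ± 0.11), and Mmp15 passed at about 1 CPM (-0.56 ± 0.21) but not in DESeq2, in the fit of all 5 core groups nor without WT replicate 3 or replicate 4 labelled KO. Of 24 ADAMTS and ADAM proteases, 9 were above 0, 1 was higher and 3 were lower, with a median of -0.035. The lower ones were the membrane protease Adam12 (-0.43 ± 0.16) and the aggrecan-cleaving Adamts4 (-0.21 ± 0.08) and Adamts15 (-0.44 ± 0.17), and the higher one was Adamts7 (0.44 ± 0.18), all under the fold threshold. In the fit of all 5 core groups and without WT replicate 3, 0 of the 24 moved in either direction at that p. The 3 became 1 without WT replicate 1. All 13 tested cathepsins and lysosomal proteases were below 0, and 2 were lower at an unadjusted p under 0.05, Lgmn (-0.25) and Ctso (-0.14), beside 4.23% of all genes on that side. The 2 became 4 in DESeq2, 0 in the fit of all 5 core groups and 1 without WT replicate 1, 3 or 4 or replicate 1, 3 or 4 labelled KO. Among growth factors, Tgfb2 was lower without overlap (-0.40 ± 0.08), and the activin subunits Inhba and Inhbb were higher (0.62 and 0.70) but neither passed without WT replicate 3, WT replicate 4, replicate 2 labelled KO or replicate 4 labelled KO, nor Inhbb without WT replicate 1. The Wnt antagonist Sfrp2 was at 31.5, 19, 41 and 41.2 CPM in the WT libraries and 17, 16.6, 20.9 and 15.2 CPM in those labelled KO (log2 fold change -0.93 ± 0.22 (SE)), with WT replicate 2 inside the range of the libraries labelled KO.

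**Figure D4:**
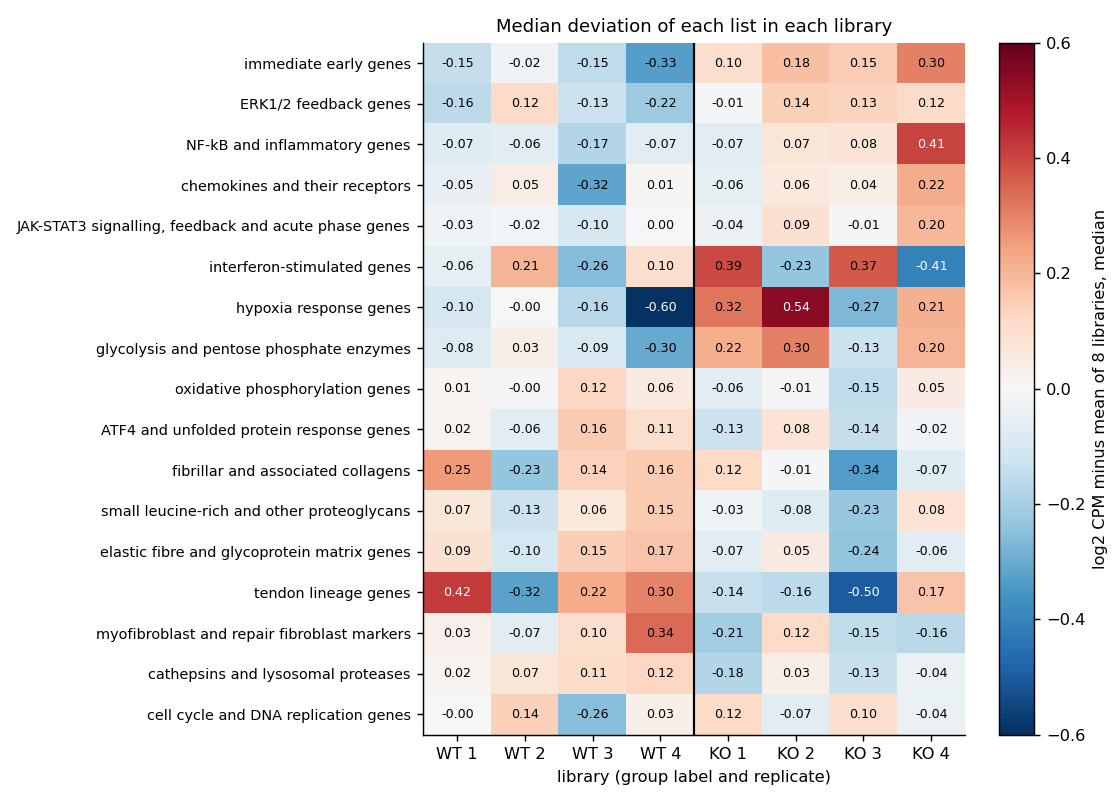
Each cell gives, for 1 gene list (rows) in 1 library (columns), the median over the list's members of log2 CPM minus the mean of the 8 libraries, from blue (below) to red (above). Immediate early genes are above 0 in all 4 libraries labelled KO and below 0 in all 4 WT libraries, hypoxia genes are at -0.27 in replicate 3 labelled KO, and tendon lineage genes are at -0.32 in WT replicate 2.

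Interferon-stimulated genes are named because they stood apart between libraries of 1 group. Only Gbp4 of 42 tested passed (1.06 ± 0.31), below 1 CPM in every library. The list's median deviation was 0.39 and 0.37 in replicates 1 and 3 labelled KO and -0.23 and -0.41 in replicates 2 and 4, and the WT range was -0.26 to 0.21, so that replicates 1 and 3 stood above it and replicate 4 below it. The list's median fold change of 0.10 became -0.04 without replicate 1 labelled KO, -0.02 without replicate 3 labelled KO and 0.0216 without WT replicate 3, and was 0.215 without replicate 2 labelled KO and 0.207 without replicate 4 labelled KO. Replicates 1 and 3 labelled KO were those with a low Ddx3y level and replicates 2 and 4 those with a high one. The WT libraries were not sorted in this way. WT replicates 1 and 2, with a low Ddx3y level, were at -0.06 and 0.21, and WT replicates 3 and 4, with a high one, at -0.26 and 0.10. A link of the list with Ddx3y was not tested. Cell cycle and DNA replication genes had a median of 0.03. Of 46 tested, 4 were higher (Tyms, Tk1, Ccnd1 and Cdkn2a) and 0 lower, beside 4.64% and 4.23% of all tested genes. The 4 became 2 without WT replicate 1 or 4 and 1 in the fit of all 5 core groups, and the median was -0.0323 without WT replicate 3 and 0.0954 without WT replicate 2. Cdkn2a, an inhibitor of cell cycle kinases, lost its call in 6 alternatives. Tyms (0.31 ± 0.09, under the fold threshold) is the tested gene next to Il6 in gene order. It was also higher in the cell-free cores labelled KO (0.44 ± 0.17) and in the hydrogels around cores labelled KO (0.36 ± 0.14). Cytosolic ribosomal protein genes had 0 of 74 past an unadjusted p of 0.05 (8 lower without replicate 4 labelled KO).

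Markers of other cell types were summed in each library. Summed leukocyte and macrophage markers, most of them Lyz2, were at 10290 to 10980 CPM in the WT libraries and 9353 to 11140 CPM in those labelled KO (exact permutation p = 0.571). Of the 24 markers, 9 were above 0, with a median of -0.07. Beside Cx3cr1 as the higher one, 2 were lower at an unadjusted p under 0.05, Folr2, a folate receptor of resident macrophages (-0.16 ± 0.05, without overlap), and Adgre1, which encodes F4/80 (-0.23 ± 0.10). In the fit of all 5 core groups 0 were lower, and Adgre1 was not lower when any library other than WT replicate 4 or replicate 1 labelled KO was left out. Endothelial markers summed to 47.8 to 57.2 and 55.5 to 60.8 CPM (exact permutation p = 0.0857), with Pecam1 below 1 CPM in every library. Adipocyte markers, of which Lpl gave the larger part, summed to 104 to 136 and 133 to 238 CPM (exact permutation p = 0.0571), while the adipocyte hormone Adipoq was at 0.0649 CPM or less. Of the 5 adipocyte markers tested, Lpl alone was above 0 and 4 were below, with a median of -0.17. Lpl, lipoprotein lipase, was at 124, 93.5, 89.4 and 111 CPM in the WT libraries and 135, 226, 117 and 215 CPM in those labelled KO (log2 fold change 0.73 ± 0.21 (SE)). Skeletal muscle markers summed to 34.8 to 53.4 and 26.3 to 68.1 CPM (exact permutation p = 0.857), but the myosin heavy chain Myh1 was at 6.53, 5.08, 12.1 and 8.34 CPM in the WT libraries and 3.96, 4.11, 2.82 and 1.57 CPM in those labelled KO, without overlap (log2 fold change -1.35 ± 0.32 (SE)), and Myh2 was lower too (-1.13 ± 0.43), though not without WT replicate 3, replicate 1 labelled KO or replicate 3 labelled KO. Neb, the thin filament protein nebulin, was higher without overlap (0.45 ± 0.18), but not in the fit of all 5 core groups nor without WT replicate 1, 2 or 3, replicate 1 labelled KO or replicate 3 labelled KO. Of the 11 muscle markers tested, 6 were above 0, with a median of 0.12 (-0.108 without replicate 1 labelled KO and -0.127 without replicate 3 labelled KO). The part of these markers in the results above was not tested.

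The genes with the lowest p outside those groups were varied. Among the higher ones were Sptb, the erythroid and muscle form of beta spectrin (0.77 ± 0.14), Ttc39a (0.66 ± 0.13), Mettl21c, a muscle lysine methyltransferase (0.73 ± 0.16), and Icosl, a costimulatory ligand of T cells (0.64 ± 0.15). Nxph4, a neurexophilin, was at 4.02, 3.21, 4.01 and 3.51 CPM in the WT libraries and 9.6, 8.13, 3.99 and 10.2 CPM in those labelled KO, with replicate 3 labelled KO inside the WT range (log2 fold change 1.11 ± 0.25 (SE)). Tnni3, a troponin of the heart, was higher at 2 to 4 CPM (0.59 ± 0.14). H2-Q10 (0.95) and the linker histone Hist1h1d (0.60, not without replicate 1 labelled KO) were higher as well, but both have near-identical relatives between which reads may have been divided.

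On the lower side, Stk32b, a kinase, was at 7.57, 3.09, 8.46 and 7.84 CPM in the WT libraries and 2.84, 2.85, 1.72 and 1.91 CPM in those labelled KO (log2 fold change -1.53 ± 0.31 (SE)). The groups of Stk32b did not overlap although WT replicate 2 was close to the other group. Vat1l was at 446, 444, 504 and 434 CPM in the WT libraries and 209.7, 317, 329 and 352 CPM in those labelled KO (log2 fold change -0.60 ± 0.14 (SE)), and Fabp5, a fatty acid carrier of macrophages and epithelia, at 195, 216, 218 and 222 CPM in the WT libraries and 106, 176, 138 and 119 CPM in those labelled KO (log2 fold change -0.66 ± 0.14 (SE)). Both were lower in all 4 libraries labelled KO than in any WT library, and Vat1l stayed under the fold threshold without replicate 1 labelled KO. Adam23, a protease-like adhesion protein (-0.69), the cannabinoid receptor Cnr1 (-0.76), Vstm4 (-0.51), Sel1l3 (-1.0), Il1rapl1 (-0.69) and the nucleoside transporter Slc28a2 (-0.63) also belonged to the 15 lowest p on this side. Vstm4 lay close to the fold threshold and lost its call without any of 5 libraries (WT replicates 1, 3 and 4, replicates 1 and 4 labelled KO). For Adam23 and Cnr1, WT replicate 2 lay within the range of the group labelled KO.

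Genes near Il6 were counted because a congenic mouse can carry DNA of the donor strain beside the targeted allele. Of the 100 tested genes nearest to Il6 in gene order, 50 on each side, 7 passed the thresholds (7.00%), compared to 2.44% of all tested genes, and 19 had an unadjusted p under 0.05 (19.0% against 8.88%). With 25 genes on each side it was 4 of 50, and with 100 it was 12 of 200. On the whole chromosome 46 of 1164 tested genes passed, Il6 included. Stk32b, Sel1l3, Cxcl1, Cxcl2, Gbp4 and Nxpe5 lie on it too, 123 to 901 tested genes away from Il6. Closer to Il6 lie Tyms, named above among the cell cycle genes, and Lrrc17, named among the myofibroblast markers. Tyms is the next tested gene and is among the 19, and Lrrc17 is 58 tested genes away and is among the 12. Those with a gene name among the 7 were the zinc transporter Slc30a3 (1.64 ± 0.32, below 1 CPM), Cgref1 (-0.70 ± 0.20), Dpp6 (-0.61 ± 0.21), Kcnh2 (-0.58 ± 0.20) and Garem2 (0.69 ± 0.30), and they were named after their values were seen. Dpp6 did not pass without WT replicate 1, Kcnh2 without WT replicate 3 or replicate 4 labelled KO, and Garem2 without any WT library or replicate 4 labelled KO. No genotype of the flanking DNA was examined.

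The same contrast in cores beside cell-free hydrogel, again 4 libraries against 4, shows which differences accompanied the genotype label without fibroblasts. It had 142 genes higher (0.884%) and 57 lower (0.355%) by the same thresholds, and 0 with an adjusted p under 0.05 in edgeR, where 190 were higher and 149 lower at an unadjusted p under 0.05. Of the 392 genes that passed with fibroblasts, 372 were tested in the cell-free cores, and 228 of these (61.3%) had the same direction, compared to 45.2% of all genes tested in both. The share was 158 of 235 for the higher genes and 70 of 137 for the lower ones. In all, 36 genes passed in both cultures, 34 with the same direction, which is 9.18% of the fibroblast calls and 18.1% of the 199 cell-free calls. The libraries with the same number and genotype matched between cultures in Ddx3y level in 8 of 8 cases, and the labels do not state whether they come from the same mice. Deviations from the group mean correlated between cultures at 0.163 to 0.355 for the 4 pairs of the same number labelled KO and at 0.032 to 0.39 for the 4 WT pairs. The fits took all libraries as separate mice. If mice were shared, the values of the 2 cultures are not independent.

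Fos was higher in both (cell-free log2 fold change 0.76), and Ccl8, Fabp5, Sel1l3 and Slc28a2 were lower in both (cell-free -1.49, -1.02, -1.12 and -0.83). Nxpe5 was at 83.7, 91.9, 96.7 and 98.9 CPM in the WT libraries and 40.2, 72.7, 51.3 and 48.1 CPM in those labelled KO with fibroblasts (log2 fold change -0.81 ± 0.15 (SE)). Its cell-free fold change was -3.11, and among the genes that passed it had the lowest p for the interaction of genotype label and culture. In edgeR's test of that interaction 0 of 16772 genes had an adjusted p under 0.05 (the lowest was 0.985), and 504 had an unadjusted p under 0.05 (1.38% with a higher and 1.62% with a lower fold change with fibroblasts). Hypoxia genes had a cell-free median of 0.09, with 0 higher and 1 lower at an unadjusted p under 0.05 (1.18% and 0.927% of all genes in the cell-free cores). Of the 28, 5 had an interaction p under 0.05, the lowest for Car9 (cell-free log2 fold change -0.05). In the hydrogels around the cores, 26 of the 28 hypoxia genes were above 0, with a median of 0.32. Immediate early genes had a cell-free median of 0.13, with 3 higher. Oxidative phosphorylation genes, mostly below 0 with fibroblasts, were above 0 for 61 of 64 in the cell-free cores (median 0.15). In the hydrogels around the cores 59 of 64 were above 0 (median 0.0998), and 0 had an interaction p under 0.05. Of the 30 ATF4 and unfolded protein response genes, 24 were above 0 cell-free and 27 in the hydrogels, and 2 had an interaction p under 0.05. Myofibroblast markers had a cell-free median of 0.18 against -0.16 with fibroblasts, and 4 of 19 had an interaction p under 0.05, which were the 4 that were lower with fibroblasts (Cthrc1 at 0.48, Lrrc15 at 0.80, Lrrc17 at 0.77 and Acta2 at 0.51 in the cell-free cores). The interaction contains the fold change with fibroblasts, so this overlap is in part built in, as it is for other genes picked by that fold change. Elastic fibre and glycoprotein genes were above 0 for 29 of 37 in the cell-free cores (median 0.13), proteoglycans for 23 of 31 (0.09) and collagens for 18 of 28 (0.07). Of these lists, 6, 1 and 2 members had an interaction p under 0.05. In the hydrogels 11 of 36, 12 of 31 and 2 of 27 were above 0. Interferon-stimulated genes had 30 of 42 higher in the cell-free cores labelled KO, with a median of 0.59, and 1 of 42 with fibroblasts, and 7 had an interaction p under 0.05.

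**Figure D5:**
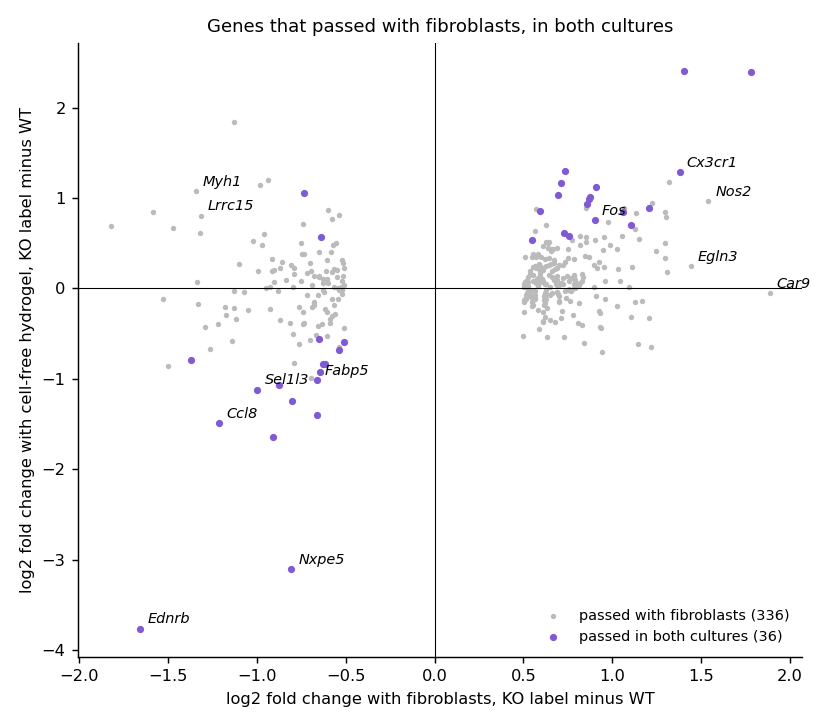
Each point is 1 of the 372 genes that passed with fibroblasts and were tested in both cultures, with the log2 fold change (labelled KO minus WT) with fibroblasts on the x axis and beside cell-free hydrogel on the y axis. Purple marks the 36 genes that passed in both, of which 34 lie in the upper right or lower left, and Car9 and Egln3 lie near 0 on the y axis.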

How the data were processed

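Total RNA was sequenced from tendon cores by the authors, who deposited estimated counts per gene as whole numbers (kallisto 0.46.1 against GRCm39 per the submitters' processing notes, annotation release not given in the sources used here). From these counts, the 4 core libraries labelled KO and the 4 WT core libraries with fibroblasts were taken by sample label. Genes were filtered with filterByExpr, scaled by TMM and tested with edgeR 4.0.16 in R 4.3.3 (quasi-likelihood, 2 groups, no covariate, Benjamini-Hochberg adjustment), with a prior count of 2 for log2 CPM. SE is the log2 fold change over the square root of F. Single sums were tested by two-sided exact permutation. Cell-free cores were fitted likewise, and the interaction in 1 fit of 4 groups. The scripts were tested on simulated data. DESeq2 1.42.0, other scalings, filters and blocks, and leaving out each library were alternatives.

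Named were Il6, the 15 genes of lowest p in each direction above a mean of 1 log2 CPM with a proper gene name, up to 5 members of each gene list by p, and tissue markers, and others chosen after their values were seen, as stated (also Il6ra, Il6st, Pecam1, Adipoq, Ddx3y, Plekhg4, Slco2a1 and Wfdc17). 1 gene that this rule names is not reported here. Members and lists were chosen with earlier results of these data known. Symbols and gene order came from GENCODE M21, and 25587 of 25700 identifiers matched. For Aldoa, which has 2 identifiers, the more abundant was used. Counts are pseudoaligned, so that near-identical genes may share reads.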

Additional observations from a re-analysis of the deposited data

Results flagged for a closer look

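Within groups of 4 libraries, the gap of the highest or lowest library to its neighbour divided by the group's range, was above Dixon's critical value in 18 of 368 groups examined (272 of genes and 96 of gene lists), where chance gives about 1 in 20. WT replicate 2 stood below its group for Col11a2 (81.4 CPM), Chodl (1.71 CPM), Vstm4 (11 CPM), Stk32b (3.09 CPM) and Adam23 (165 CPM). WT replicate 3 was low for Dusp1 (40.4 CPM) and high for Pgam2 (9.07 CPM), and its NF-kB list median deviated by -0.174. WT replicate 4 was low for Slc16a3 (35.6 CPM), high for Col2a1 (2.94 CPM), and above its group for the TGF-beta and BMP list (0.102) and the glial markers (0.342). In the group labelled KO, replicate 1 was low for Sdc2 (110 CPM) and for the ERK1/2 feedback list (-0.0084), replicate 2 was high for Lrrc17 (1.58 CPM), replicate 3 was low for Mxi1 (33.2 CPM), and replicate 4 was high for Ier2 (24.3 CPM) and Garem2 (2.76 CPM).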

How the results depend on the processing

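The 392 genes that passed the study's thresholds became 668 with no filter on low counts (24734 genes tested), 144 at an unadjusted p under 0.01 and 1428 with no fold threshold, and ranged from 270 (without WT replicate 3) to 570 (without WT replicate 2) when 1 library was left out. The 0 genes with an adjusted p under 0.05 became 45 in DESeq2, 2 with no filter, 2 with the title number as a block, 1 with a block by Y-linked transcript, an alternative added once the data had been seen, 1 at an adjusted p under 0.1, and 0 to 9 when 1 library was left out (9 without WT replicate 2). The replicate block gave 451 genes past the study's thresholds and 3 with an adjusted p under 0.05 (Ccl8, Plekhg4 and Fos). Deviations of same-numbered libraries correlated at 0.499, -0.0297, -0.185 and 0.299, so the numbers were not taken to pair the samples. Within title numbers these correlations ran from -0.185 to 0.499, and each library correlated best with a library of its own title number in the other group, a hint from the data only. These best pairs also matched in Ddx3y level, and the pairs of the same title number that did not match in it were at -0.0297 and -0.185. The part of title number and of sex was not tested. The title-number block gave 461 genes past the study's thresholds and 1893 at an unadjusted p under 0.05 (Fos and Ccl8 under the adjusted 0.05). Il6 kept its direction and its call in every alternative, between 0.82 and 1.54 with 1 library left out. Of 88 other genes followed that passed, 46 kept the call under all alternatives, and 0 of 135 reversed. A block by Xist was not run, since Xist was not analysed here. The interaction had 0 genes with an adjusted p under 0.05 in edgeR with either block, and its 504 genes at an unadjusted p under 0.05 became 757 with the title number and 667 with the replicate number. The cause of these shifts was not tested. In the shallowest library 1 CPM is about 22 counts.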

Other observations

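Ifi202b, a DNA-binding interferon-inducible gene chosen after its values were seen, was at 0.358, 0.582, 0.202 and 0.54 CPM in the WT libraries and 40.0, 0.361, 0.519 and 9.43 CPM in those labelled KO. The cell-free cores labelled KO showed the same replicate numbers, with 87.2 and 27.4 CPM in replicates 1 and 4 and 0.304 and 0.15 CPM in replicates 2 and 3, against 0.459 CPM or less in the WT cell-free cores. Related Ifi200 genes may share reads with it. The endothelin receptor Ednrb, also named after its values were seen, was at 13.8, 16.1, 23.2 and 35.4 CPM in the WT libraries and 2.39, 15.8, 6.29 and 4.1 CPM in those labelled KO (log2 fold change -1.66 ± 0.51 (SE)), and it was lower in the cell-free cores labelled KO as well (-3.77). The prostaglandin transporter Slco2a1 and the small secreted protein Wfdc17 likewise passed in both cultures, the first higher (1.10 with fibroblasts and 0.70 cell-free) and the second lower (-0.88 and -1.07).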
